A study of Homo sapiens with 6 samples.

Results

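Polyamine synthesis and breakdown were followed through 10 genes, taken by symbol from the 27852 gene symbols of a transcript table after each transcript was counted once and summed to its gene. All 10 were present and all 10 passed the filter on low counts, which kept 13236 genes. The genes encode the enzymes that make polyamines (ODC1, AMD1, SRM and SMS), the enzymes that break them down (SAT1, SMOX and PAOX) and the proteins that set the stability of ornithine decarboxylase (OAZ1, OAZ2 and AZIN1). Poly(A) RNA came from 3 established oral squamous carcinoma lines of human origin (HSC3, HSC4 and SAS), for which the labels name no genetic change. Each line gave 1 library from cells in DMEM, a standard culture medium, and 1 from cells in HPLM, a medium made up to resemble human plasma. Both media held heat-inactivated fetal bovine serum and an antibiotic-antimycotic mix, and the time spent in a medium is not given in the sources used here. The 3 lines stand in for replicates of the medium, so p-values for the medium rest on the spread of the response over lines, moderated by that of other genes. A difference between media inside a single line has no replicate behind it.

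Polyamines are small positively charged molecules that bind nucleic acids and are needed for growth. Ornithine decarboxylase turns ornithine into putrescine, and S-adenosylmethionine decarboxylase supplies the aminopropyl groups with which spermidine synthase and spermine synthase lengthen it to spermidine and spermine. Spermidine/spermine acetyltransferase marks polyamines for export or oxidation, and antizymes deliver ornithine decarboxylase to the proteasome when polyamines are abundant. HPLM contains ornithine and citrulline, which DMEM lacks, while serum in either medium can bring polyamines of its own.

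Library totals lay between 17716006 and 20171713 estimated counts. The markers of squamous epithelium fixed for the check of the cells summed to between 2017 and 4931 CPM (estimated counts scaled to a common library size) in DMEM and between 1522 and 4129 in HPLM. None of the 8 was at 0 in all libraries, although KRT14 had 4.4 CPM in DMEM and 10.8 in HPLM in HSC4 against at least 165 in the other libraries. The 5 fibroblast markers summed to at most 5.92 CPM with COL3A1 at 0 in all libraries, the 5 leukocyte markers to at most 5.34 and the 3 endothelial markers to at most 2.49.

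SAT1 encodes spermidine/spermine acetyltransferase, the rate-limiting enzyme of polyamine breakdown, and lies at chrX:23783173-23786226 on the plus strand (GENCODE 29, GRCh38). Levels are given as CPM scaled between libraries, and since the deposited values are corrected for transcript length, CPM can be set side by side between genes per length. The SAT1 level was 121 CPM in DMEM against 251 in HPLM for HSC3, 114 against 224 for HSC4 and 160 against 253 for SAS. Every HPLM library stood above every DMEM library, and the levels in HPLM lay closer together than those in DMEM. The log2 fold change was 0.90 ± 0.11 (SE, 3 lines), or 1.86-fold, with an edgeR quasi-likelihood adjusted p of 0.17, which missed the threshold of 0.05. By unadjusted p (0.000159) SAT1 was number 12 of 13236 genes. In bulk RNA a change in the make-up of a culture and a change within its cells cannot be told apart.

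ODC1 encodes ornithine decarboxylase, the first enzyme of the pathway and a classic target of the transcription factor MYC, and lies at chr2:10439968-10448504 on the minus strand. Its level was 194 CPM in DMEM against 274 in HPLM for HSC3, 78.9 against 119 for HSC4 and 286 against 382 for SAS. HPLM was above DMEM in each line, but the lines differ so much that the groups overlap: HSC4 in HPLM stood below HSC3 and SAS in DMEM. The log2 fold change was 0.50 ± 0.09 (SE), or 1.41-fold, with an edgeR adjusted p of 0.296. The log2 ratios of HPLM to DMEM were 0.50, 0.59 and 0.42 in HSC3, HSC4 and SAS, a narrow range beside that of the levels.

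The other 3 enzymes of synthesis showed smaller differences. SMS encodes spermine synthase (chrX:21940573-21994835, plus strand) and had 173 CPM in DMEM against 246 in HPLM for HSC3, 235 against 255 for HSC4 and 224 against 259 for SAS. Its groups did not overlap, and the fold change was 0.28 ± 0.10 on the log2 scale (SE; adjusted p by edgeR, 0.468) and 0.16 without HSC3. SRM encodes spermidine synthase (chr1:11054584-11060024, minus strand) and had 133 against 154 CPM for HSC3, 102 against 124 for HSC4 and 201 against 199 for SAS. The log2 fold change of SRM was 0.16 ± 0.10 (SE, edgeR adjusted p = 0.622), with SAS flat and the groups overlapping; without HSC4 it was 0.09 and without SAS 0.25. AMD1 encodes S-adenosylmethionine decarboxylase (chr6:110874770-110895713, plus strand), whose translation is known to be held back by polyamines through a small upstream reading frame. AMD1 had 77.5 against 73.4 CPM for HSC3, 63.2 against 61.7 for HSC4 and 106 against 96.1 for SAS. It was the 1 gene of the 10 that was lower in HPLM in all 3 lines, by small amounts (log2 fold change −0.09 ± 0.09, SE, edgeR adjusted p = 0.776).

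The 2 oxidases of breakdown were at low levels in HSC3 and SAS and showed no shared direction. SMOX encodes spermine oxidase (chr20:4120980-4187747, plus strand), with 8.74 CPM in DMEM against 5.23 in HPLM for HSC3, 44.5 against 46.7 for HSC4 and 5.92 against 9.17 for SAS. The log2 fold change of SMOX was −0.00079 ± 0.23 (SE, edgeR adjusted p = 0.999), since HSC3 was lower and SAS higher in HPLM. PAOX encodes the peroxisomal oxidase of acetylated polyamines (chr10:133379234-133391694, plus strand), with 0.890 CPM in DMEM against 0.616 in HPLM for HSC3, 6.45 against 6.27 for HSC4 and 0.915 against 2.23 for SAS. Its log2 fold change was 0.25 ± 0.40 (SE, edgeR adjusted p = 0.876), and without SAS it was −0.22, without HSC3 0.50 and without HSC4 0.42.

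The control genes were close to level between media. OAZ1 encodes antizyme 1 (chr19:2269509-2273490, plus strand), the main destroyer of ornithine decarboxylase, and was by level the highest of the 10 genes. It had 700 CPM in DMEM against 711 in HPLM for HSC3, 576 against 605 for HSC4 and 696 against 669 for SAS. The log2 fold change of OAZ1 was 0.01 ± 0.08 (SE, edgeR adjusted p = 0.972), and it was −0.037 without a scaling factor and −0.025 without HSC4. OAZ2 encodes antizyme 2 (chr15:64687573-64703281, minus strand), with 42.4 against 49.1 CPM for HSC3, 83.4 against 80.6 for HSC4 and 49.4 against 61.1 for SAS (log2 fold change 0.16 ± 0.11, SE, edgeR adjusted p = 0.666). AZIN1 encodes antizyme inhibitor 1, a relative of ornithine decarboxylase without enzyme activity that binds antizymes in its place, and lies on chromosome 8. AZIN1 had 112 against 116 CPM for HSC3, 133 against 130 for HSC4 and 163 against 201 for SAS (log2 fold change 0.11 ± 0.10, SE, edgeR adjusted p = 0.761). Both OAZ2 and AZIN1 were slightly lower in HPLM in HSC4 and higher in HSC3 and SAS. Without SAS the log2 fold change was 0.078 for OAZ2 and 0.0088 for AZIN1, and without HSC4 it was 0.25 and 0.17.

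**Figure D1:**
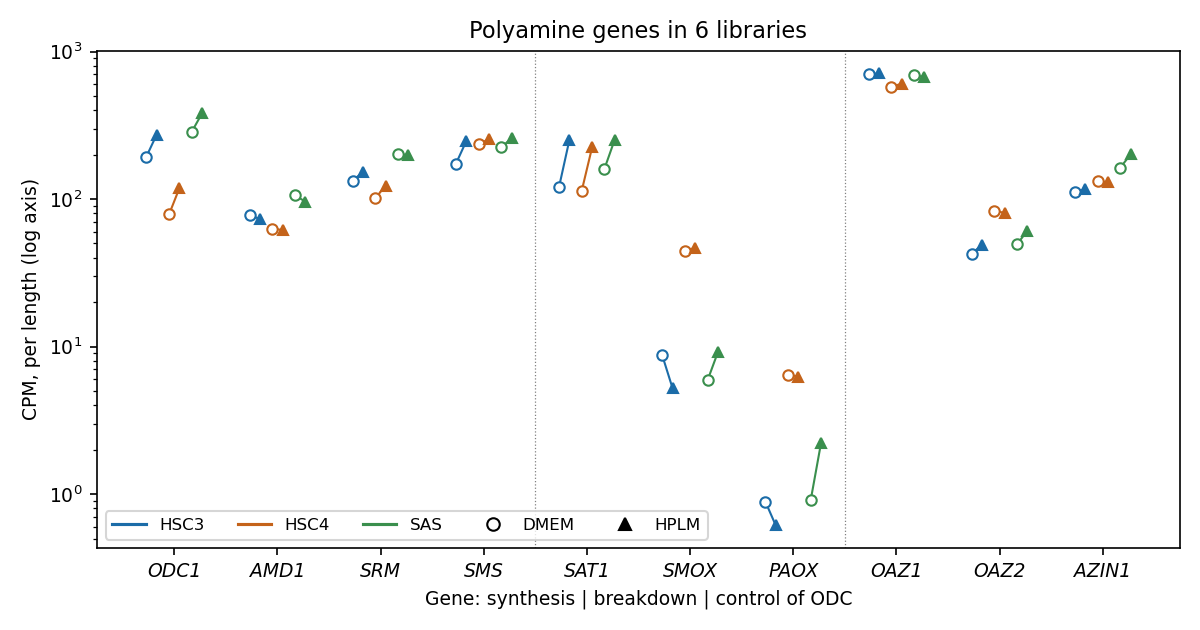
The level of each of the 10 genes in CPM, per length, on a log axis, with 1 point per library (open circles DMEM, filled triangles HPLM) and a line joining the media of each cell line. SAT1 lies between 114 and 160 CPM in DMEM and between 224 and 253 in HPLM, while SMOX and PAOX are set apart by HSC4.

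By the edgeR test 0 of the 10 genes passed, and over all genes tested 1 passed, or 0.00756%. At an unadjusted p under 0.05 there were 3 of the 10, SAT1, ODC1 and SMS, all higher; of all genes 10.1% passed this rule, 5.57% as higher and 4.55% as lower. DESeq2 called SAT1 (adjusted p = 1.07e-09) and ODC1 (adjusted p = 0.000423), against 0.96% of all genes called by it, and limma-voom, which called 0.068% of all genes, called 0 of the 10 (SAT1 adjusted p = 0.0731, ODC1 adjusted p = 0.165). DESeq2 uses a normal reference for its test, which with 2 residual degrees of freedom can give p-values that are too small. Over all alternatives the adjusted p of SAT1 ran from 1.07e-09 with DESeq2 to 1 without the cell line as block, and that of ODC1 from 0.000423 to 1 with the same settings. HPLM and DMEM libraries did not overlap for 2 of the 10, SAT1 and SMS, both higher, where 1.41% of all genes were higher without overlap and 1.23% lower. The same direction in all 3 lines was found for SAT1, ODC1 and SMS as higher, against 16.9% of all genes, and for AMD1 as lower, against 17.2%. The median log2 fold change was 0.16 over the 10 genes and 0.00041 over all genes tested. Since the 10 genes were chosen with earlier results of these data known, setting them beside all genes is a description.

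**Figure D2:**
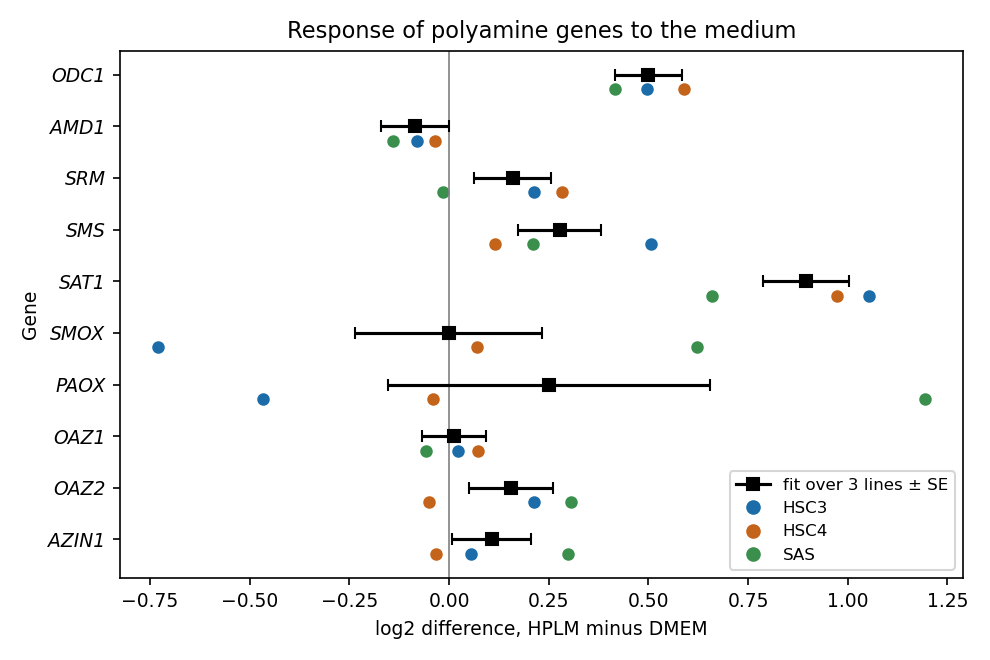
The log2 difference between HPLM and DMEM for each of the 10 genes, with black squares for the fit over 3 lines ± SE and coloured points for the log2 ratio within each line. SAT1 (0.90 ± 0.11) and ODC1 (0.50 ± 0.09) have all 3 lines to the right of 0, while SMOX runs from −0.73 in HSC3 to 0.62 in SAS and PAOX from −0.47 to 1.19.

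Ratios of levels within a library set the arms of the pathway side by side. SAT1 over ODC1, breakdown against the entry step, was 0.622 in DMEM against 0.916 in HPLM for HSC3, 1.44 against 1.88 for HSC4 and 0.561 against 0.663 for SAS. This ratio was higher in HPLM in each line, and in HSC4 alone of the lines the sum over all SAT1 forms exceeded that of ODC1 in either medium. Forms annotated as coding held 65.2% to 84.1% of SAT1 and 97.3% to 99.5% of ODC1. In HSC4 in DMEM they held 66.3% of SAT1 and 97.3% of ODC1. There SAT1-204, SAT1-202 and SAT1-201 had 926, 529 and 126 estimated counts, and SAT1-203 had 0. ODC1-202, ODC1-201 and ODC1-203 had 1049, 538 and 17.8. Coding SAT1 was thus slightly below coding ODC1 in that library, and the excess there rested on forms without a coding frame. The ratio itself was not taken over coding forms alone. ODC1 over OAZ1, the enzyme against its antizyme, went from 0.277 to 0.385 in HSC3, from 0.137 to 0.196 in HSC4 and from 0.411 to 0.571 in SAS, log2 differences of 0.47, 0.52 and 0.47. SMS over SRM, the last step against the one before, differed between media by log2 0.29 in HSC3, −0.17 in HSC4 and 0.23 in SAS. OAZ1 over AZIN1, the antizyme against its inhibitor, differed by log2 −0.03, 0.11 and −0.36. These ratios are descriptions with no test, and the first 2 rest on the levels of SAT1 and ODC1 already given.

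The table resolves transcripts, and for SAT1 this bears on an exon that decides whether the reading frame runs to its full length. SAT1 transcripts with an extra exon carry an early stop codon, and skipping of this exon is known to respond to polyamine supply. Of the 9 SAT1 transcripts in the table, SAT1-204 is the full coding form with 6 exons and SAT1-209 has a seventh of 110 bases between the third and the fourth exon of SAT1-204. The exon is shown here because it tells the 2 forms apart; it lies at chrX:23784294-23784403 on the plus strand (GENCODE 29, GRCh38), and capitals mark the first stop codon in the reading frame of SAT1-204.
SAT1 extra exon: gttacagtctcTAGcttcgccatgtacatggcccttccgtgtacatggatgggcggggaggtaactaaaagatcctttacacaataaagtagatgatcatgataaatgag
Read from the start codon of SAT1-204, the frame ends after 71 codons with the exon and after 171 without it. The stop stands at bases 12 to 14 of the exon, and the length of the exon is not a multiple of 3.

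SAT1-209 took 11.7% of the SAT1 count in DMEM against 7.39% in HPLM for HSC3, 12.02% against 9.58% for HSC4 and 3.05% against 3.30% for SAS. SAT1-204 took 34.2% against 41.6% for HSC3, 38.8% against 42.5% for HSC4 and 69.6% against 67.3% for SAS. Of the sum of both forms, SAT1-209 was 25.5% in DMEM against 15.1% in HPLM for HSC3, 23.7% against 18.4% for HSC4 and 4.19% against 4.68% for SAS. The form with the extra exon was thus a smaller share in HPLM in HSC3 and HSC4, while in SAS it was small in both media. The estimated count of SAT1-209 itself was higher in HPLM in each line. It was 270 in DMEM against 362 in HPLM for HSC3, 287 against 396 for HSC4 and 90.7 against 158 for SAS. The rest of SAT1 lay mostly in SAT1-202, a shorter coding form whose last exon runs on through the place of the extra exon (11.9% to 24.04%), and SAT1-207, a form that starts in the same intron further on and is annotated without a coding frame (11.9% to 21.8%). SAT1-202 and SAT1-209 therefore share the bases of the extra exon. Such shares are estimates of kallisto from reads that several forms can explain, with 1 library per line and medium and no test.

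ODC1 was carried by 2 coding forms that differ in their first exon and in where they end. ODC1-201 starts at position 10448504 of chromosome 2 and ODC1-202 at 10447780. ODC1-201 took 28.3% of the ODC1 count in DMEM against 34.1% in HPLM for HSC3, 32.6% against 36.1% for HSC4 and 32.1% against 32.4% for SAS. ODC1-202 took between 62.3% and 69.3%. Both forms were more abundant in HPLM in every line.

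MYC with its partner MAX binds the hexamer CACGTG, and 2 members hold it near a start in the RefSeq windows of 250 bases before to 50 after a start (GRCh38.p14). Of 35116 windows of that kind 7.26% hold the hexamer, which reads the same on both strands. Windows were given for 7 of the 10 genes, 10 windows in all. The hexamer was found in 1 of the 2 windows of ODC1 and in the 1 window of SRM. The pieces outside annotated exons are shown because they place the matches, with CACGTG in capitals: for ODC1 chr2:10447963-10448120 on the minus strand, which lies in the first intron of ODC1-201 and before the start of ODC1-202, and for SRM chr1:11060025-11060268 on the minus strand, before the gene's start.
ODC1: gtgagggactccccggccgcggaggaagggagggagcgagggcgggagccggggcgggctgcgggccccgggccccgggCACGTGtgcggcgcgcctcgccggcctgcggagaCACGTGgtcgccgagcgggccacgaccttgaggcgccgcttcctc
SRM: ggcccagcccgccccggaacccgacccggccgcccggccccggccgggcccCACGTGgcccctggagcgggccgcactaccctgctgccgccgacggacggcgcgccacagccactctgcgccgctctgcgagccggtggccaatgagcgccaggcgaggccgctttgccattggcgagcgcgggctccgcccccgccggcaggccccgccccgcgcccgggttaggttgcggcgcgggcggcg
ODC1 holds 2 matches in its piece and SRM 1. A second motif, TATGACTAA, described as a polyamine response element, was searched on both strands; it occurs in 0.0997% of all windows and in 0 of the 10 windows of the members. MYC itself had 132 CPM in DMEM against 140 in HPLM for HSC3, 79.1 against 136 for HSC4 and 218 against 217 for SAS, so that HSC4 alone of the lines showed a log2 ratio above 0.1 (log2 fold change over lines 0.28 ± 0.17, SE, edgeR adjusted p = 0.608). A match is a description of the sequence, not a binding site.

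The antizyme genes are read through a shift of the ribosome by a single base, which polyamines promote, so their messages hold a stop codon inside the antizyme frame. The site is nearly the same in OAZ1 and OAZ2 and is shown because the annotation writes it in 2 ways. Capitals mark the shift site, where the stop codon TGA follows TCC, or the same place in the forms annotated as coding, in which a base is left out so that the frame runs on.
OAZ1-208: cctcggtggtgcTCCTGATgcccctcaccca
OAZ1-211: cctcggtggtgcTCCGATgcccctcaccca
OAZ2-209: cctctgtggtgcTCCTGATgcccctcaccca
OAZ2-201: cctctgtggtgcTCCGATgcccctcaccca
Transcripts with the full site took between 82.9% and 95.3% of the OAZ1 count and between 37.2% and 49.9% of the OAZ2 count. Within OAZ2 the coding OAZ2-201 took 48.6% to 59.5% and OAZ2-209 27.7% to 41.8%.

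Most of OAZ1 was therefore assigned to forms that the annotation calls retained introns: OAZ1-208, which lacks the first exon, with 49.9% to 57.2%, and OAZ1-209, which lacks the last ones, with 28.5% to 37.0%. OAZ1-207, annotated for nonsense-mediated decay, took from 1.70% to 15.0%. Transcripts annotated as coding held from 0.729% to 2.98% of OAZ1, against 50.1% to 62.8% of OAZ2 and at least 91.4% of ODC1, SMS and AZIN1. With such transcripts alone the log2 fold change of OAZ1 was 0.75 (edgeR adjusted p = 0.662) in place of 0.01. The level of OAZ1 sums short forms that cover different ends of the gene, and whether this raises it per length was not tested. Neither medium stood apart in these shares, since OAZ1-208 took 56.7%, 56.6% and 57.1% in DMEM and 56.7%, 57.2% and 49.9% in HPLM in HSC3, HSC4 and SAS.

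**Figure D3:**
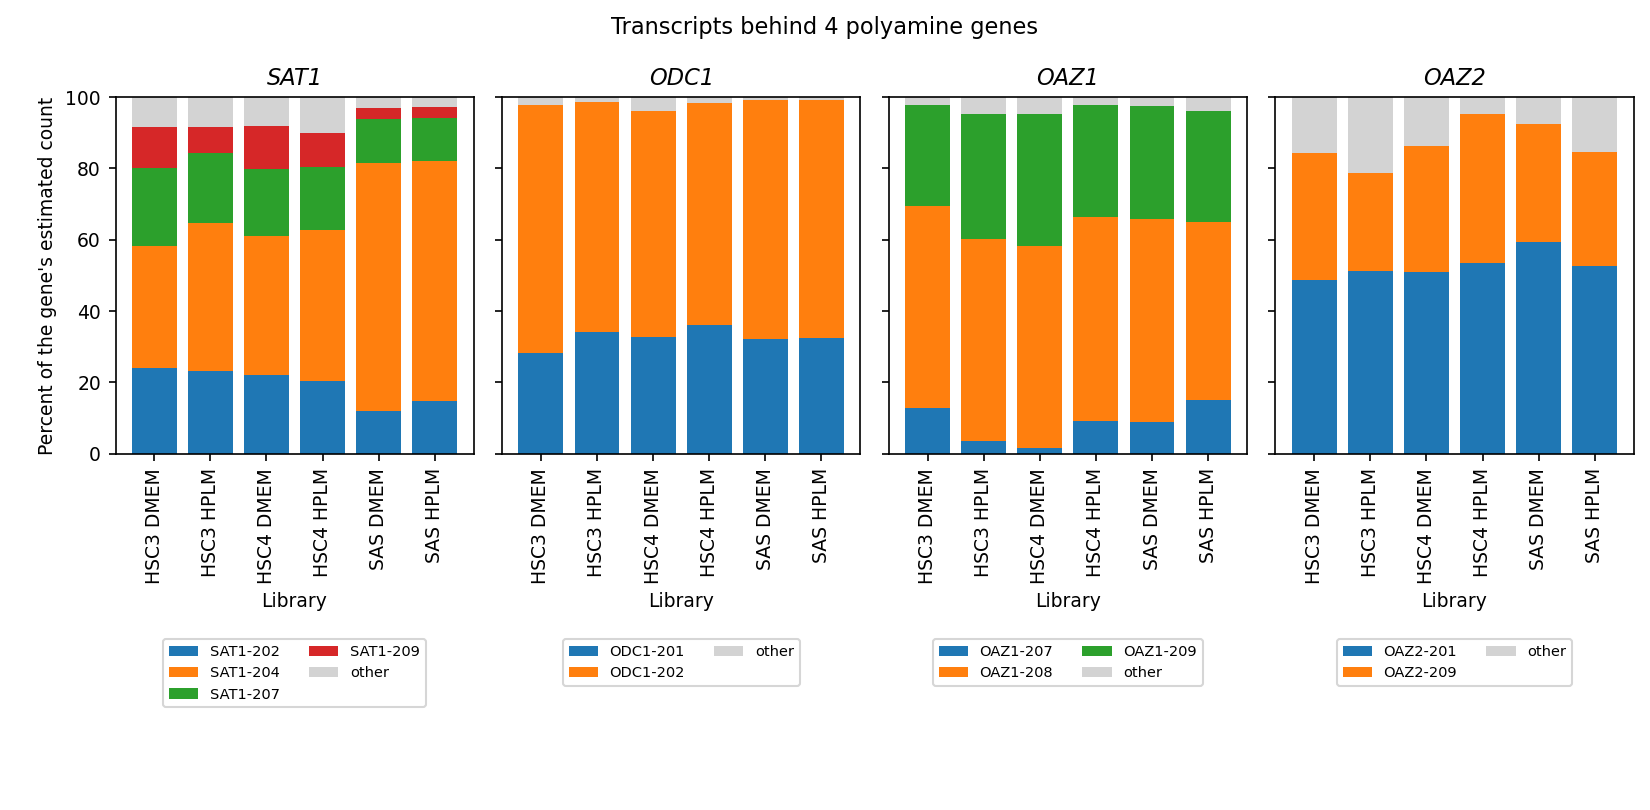
The share of each transcript in the estimated count of SAT1, ODC1, OAZ1 and OAZ2, in percent, with 1 bar per library; forms under 10% in every library are grouped as other. SAT1-204 takes 67.3% or more in SAS and at most 42.5% in the other lines, and coding forms of OAZ1 fall within the grey part.

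The remaining genes were carried mainly by 1 or 2 coding forms where the level was high. SMS-202 took at least 96.9% of SMS, SRM-201 between 79.2% and 92.0% of SRM, and AMD1-204 between 58.7% and 76.3% of AMD1. SRM-204, a retained intron form, took up to 18.1% of SRM. AMD1-206, annotated for nonsense-mediated decay, took up to 26.3% of AMD1, AMD1-202 up to 16.3% and AMD1-205 up to 11.7%. AZIN1 was split between AZIN1-202 (48.3% to 54.9%) and AZIN1-201 (39.3% to 44.6%). SMOX-202 took between 52.7% and 78.1% of SMOX, with SMOX-203, SMOX-206 and SMOX-209 at up to 13.6%, 13.3% and 23.4%. In HSC4, where SMOX was high, a further 29.9% in DMEM and 32.2% in HPLM lay in SMOX-210, a short noncoding form of 280 bases, which was at 0 in HSC3 and in SAS in DMEM. PAOX-201, a coding form, held between 78.2% and 88.4% of PAOX in HSC3 and HSC4, but 32.9% in DMEM and 0.0026% in HPLM in SAS, where PAOX-204, a form without a coding frame, took 39.8% and 48.3% and the coding PAOX-206 took 27.3% and 24.3%. PAOX-210, also without a coding frame, took 18.7% in SAS in HPLM, and PAOX-205, annotated for nonsense-mediated decay, took 11.6% in HSC3 in DMEM. These PAOX shares rest on few counts. In SAS, PAOX-201 had 5.72 estimated counts in DMEM and 0.0011 in HPLM, and PAOX-204 had 6.92 and 20.5. PAOX-205 had 1.97 in HSC3 in DMEM. By these estimates PAOX-201 did not carry the higher PAOX level of SAS in HPLM. With coding transcripts alone the log2 fold change of PAOX was −0.20 (edgeR adjusted p = 0.843).

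Between lines, 3 of the 4 enzymes of synthesis shared an order. ODC1, AMD1 and SRM were each highest in SAS and lowest in HSC4, with line means of 334, 234 and 98.8 CPM for ODC1 in SAS, HSC3 and HSC4. In SAS against HSC4 the log2 difference was 1.77 ± 0.11 for ODC1, 0.69 ± 0.10 for AMD1 and 0.84 ± 0.12 for SRM (SE, edgeR adjusted p = 0.000497, 0.00457 and 0.00376). SMOX, PAOX and OAZ2 were each highest in HSC4. In HSC4 against HSC3 they differed by 2.71 ± 0.30, 3.06 ± 0.51 and 0.85 ± 0.13 (SE, edgeR adjusted p = 0.00217, 0.00665 and 0.00522), and ODC1 by −1.25 ± 0.11 (adjusted p = 0.00111). The SMOX sum in HSC4 includes the noncoding SMOX-210, and differences between lines were not run on coding forms alone. The coding SMOX-202 had 510 estimated counts in DMEM and 456 in HPLM in HSC4, against 106 and 77.4 in HSC3. PAOX had a line mean of 6.36 CPM in HSC4, 1.57 in SAS and 0.753 in HSC3, so its differences rest on low counts. Without HSC4 in DMEM the call of PAOX in HSC4 against HSC3 was lost (2.81, edgeR adjusted p = 0.0627).

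AZIN1 was highest in SAS, above HSC3 by 0.67 ± 0.12 (SE, edgeR adjusted p = 0.0085) and above HSC4 by 0.46 ± 0.12 (adjusted p = 0.0268). The call against HSC3 was lost without HSC3 in HPLM or SAS in HPLM (edgeR adjusted p = 0.0579 and 0.0668). That against HSC4 was lost without a scaling factor (0.0897) and without HSC4 in DMEM, HSC4 in HPLM or SAS in HPLM (0.0701, 0.165 and 0.172). SMS, SAT1 and OAZ1 passed in none of the 3 comparisons of lines, and their line means differed by at most 1.23-fold. The nearest to the threshold was SAT1 in SAS against HSC4, at 0.34 ± 0.13 (SE, edgeR adjusted p = 0.0835). HSC3 and HSC4 were not told apart for AMD1 (−0.27 ± 0.10) and SRM (−0.35 ± 0.12), with edgeR adjusted p = 0.0873 and 0.0626, nor HSC3 and SAS for SMOX, PAOX and OAZ2 (edgeR adjusted p = 0.799, 0.178 and 0.15).

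In all, 4 of the 10 genes passed in HSC4 against HSC3 (3 higher, 1 lower), 4 in SAS against HSC3 (4 higher) and 7 in SAS against HSC4 (4 higher, 3 lower). Over all genes tested 37.4%, 39.4% and 41.3% passed in these comparisons, so the first 2 counts are near the share of all genes. Whether the third differs from that share was not tested, and it was lower in every fit that left out a library of HSC4 or SAS. Each line has 2 libraries that differ in medium, and the tests use their spread after the medium is taken out. The count for SAS against HSC3 fell to 1 without HSC3 in DMEM, to 0 without HSC3 in HPLM, to 1 without SAS in DMEM and to 2 without SAS in HPLM, and that for SAS against HSC4 fell to 4 without HSC4 in DMEM. The count for HSC4 against HSC3 was 3 without HSC4 in DMEM, and that for SAS against HSC4 was 6 without a scaling factor.

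**Figure D4:**
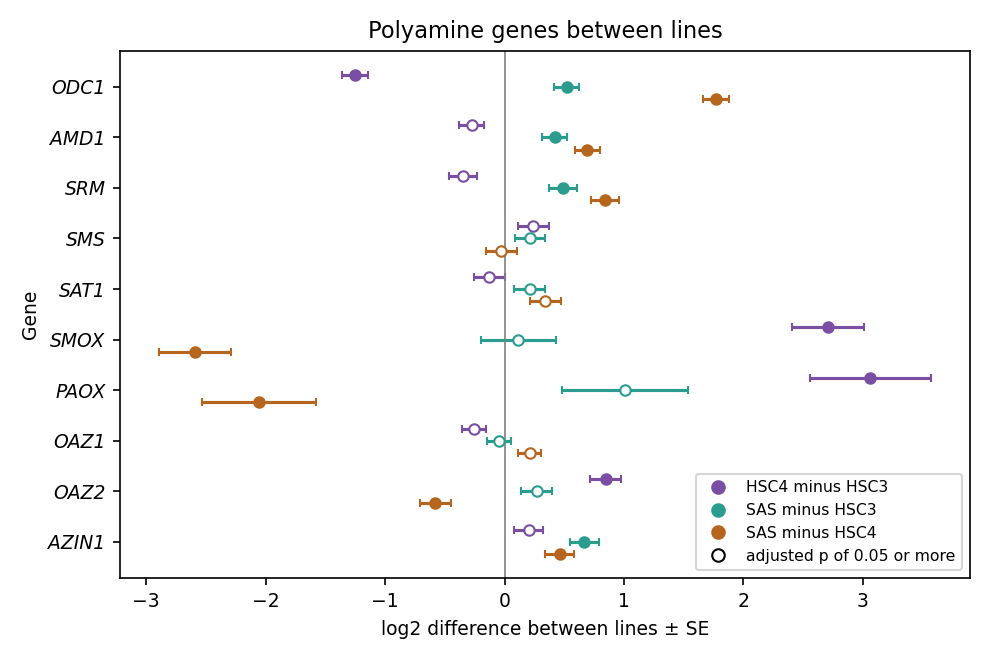
The log2 difference between lines ± SE for the 10 genes, with filled points for an edgeR adjusted p under 0.05 and open points for the rest. ODC1 spans from −1.25 in HSC4 against HSC3 to 1.77 in SAS against HSC4, and SMOX and PAOX lie at 2.71 and 3.06 in HSC4 against HSC3.

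Of 47 further genes around the pathway 40 were tested, and for the medium 0 passed by edgeR, DESeq2 or limma-voom, while an unadjusted p under 0.05 was reached by 3, all lower, against 4.55% of all genes. The 3 were ADI1, an enzyme of the methionine salvage pathway that recycles the by-product of polyamine synthesis, GPC1, a heparan sulfate proteoglycan linked to polyamine uptake, and SLC3A2, the heavy chain of amino acid transporters. ADI1 had 53.5 CPM in DMEM against 42.4 in HPLM for HSC3, 54.3 against 39.8 for HSC4 and 31.5 against 23.5 for SAS. It was lower in HPLM in all 3 lines (log2 fold change −0.40 ± 0.09, SE, edgeR adjusted p = 0.362). GPC1 had −0.60 ± 0.17 and SLC3A2 −0.34 ± 0.13 (SE, edgeR adjusted p = 0.39 and 0.48), also lower in each line.

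Among the 8 tested genes of methionine use and salvage the median log2 fold change was −0.10, with 2 higher and 6 lower. MTAP, the phosphorylase that starts the salvage, had −0.25 ± 0.12 (SE) and AHCY, which clears S-adenosylhomocysteine, 0.19 ± 0.09 (edgeR adjusted p = 0.549 for each). Among 11 tested genes of arginine and ornithine supply the median was −0.01, with 5 higher and 6 lower. Of these ASS1, the argininosuccinate synthase, had −0.36 ± 0.16 (SE, edgeR adjusted p = 0.516), ARG2, the mitochondrial arginase that yields ornithine, −0.30 ± 0.13 (0.526) and ALDH18A1, which starts ornithine and proline synthesis from glutamate, 0.19 ± 0.12 (0.648). ARG2 differed between lines in level, from 5.57 CPM in SAS in HPLM to 26.6 in HSC4 in DMEM.

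The 7 tested transport genes had a median of 0.01, with 4 higher and 3 lower. The 4 genes of hypusine, the modified residue that spermidine provides to the translation factor eIF5A, had a median of 0.10. Among them EIF5A had 1378 CPM in DMEM against 1749 in HPLM for HSC3, 1300 against 1299 for HSC4 and 1487 against 1471 for SAS (0.11 ± 0.10, SE, edgeR adjusted p = 0.766). DOHH, which completes hypusine, had 0.29 ± 0.23 and EIF5A2, a relative of EIF5A, −0.16 ± 0.13 (SE, edgeR adjusted p = 0.714 for each). The 5 near relatives had a median of 0.09, with SAT2 at −0.10 ± 0.13, SATL1 at 0.13 ± 0.40 and AZIN2 at 0.09 ± 0.54 (SE, edgeR adjusted p = 0.831, 0.942 and 0.97). The 5 tested genes of the MYC network had a median of −0.0044, with MYCL at 0.67 ± 0.62 and MNT, a repressor of the network, at −0.11 ± 0.14 (SE, edgeR adjusted p = 0.763 and 0.83).

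Over the 6 libraries, the genes whose log2 CPM followed SAT1 most closely among 9815 were PFDN2, a subunit of the prefoldin chaperone (Pearson r = 0.988), C1orf74 (0.986) and the pseudogene BNIP3P1 (0.978). For ODC1 they were TNFRSF10A, a death receptor of TRAIL (0.997), GTPBP1 (0.996) and COX17, a copper chaperone of cytochrome oxidase (0.996). PFDN2 had 189 CPM in DMEM against 292 in HPLM for HSC3, 180 against 256 for HSC4 and 232 against 284 for SAS, with no overlap of the media. COX17 had 125 against 145 CPM for HSC3, 92.1 against 105 for HSC4 and 147 against 171 for SAS, the order of lines seen for ODC1. These correlations are picked as the highest of many over 6 libraries that share 3 lines, and are a description. PFDN2 and COX17 were chosen for following SAT1 and ODC1, so their likeness to them over media and lines is no separate result.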

How the data were processed

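Poly(A) RNA of 3 oral cancer lines in 2 media was measured in 6 libraries. FastQC, kallisto and the build hg38 are named in the submitters' processing notes; their versions, the annotation release and whether strand was used are each not given in the sources used here. The authors deposited expected counts per transcript as scaled TPM, which are abundances scaled up to the library and so corrected for transcript length. Their precision as counts is approximate, and no counting interval is given. Columns were matched to samples by line and medium; those taken for DMEM name no medium, and the table had 0 further sample columns.

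Of 161149 rows, 1312 repeated ones were counted once (0 belonged to the 10 genes), and 6878 transcripts without a symbol, holding 0.362% to 0.479% of a library, were dropped, and the other 152959 transcripts were summed to 27852 symbols and rounded. Of these transcripts 95.3% were in GENCODE 29 (GRCh38), which gave types, lengths and positions.

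Tools were edgeR 4.0.16, DESeq2 1.42.0 and limma 3.58.1 in R 4.3.3. The low-count filter was filterByExpr (minimum count 10, minimum total 15), libraries were scaled by TMM (factors from 0.938 to 1.09), and line and medium were terms of the edgeR quasi-likelihood test, with Benjamini-Hochberg adjustment over 13236 genes and a threshold of 0.05. It left 2 residual degrees of freedom, and the spread of each gene was drawn toward that of all genes with a prior of 4.00 degrees of freedom. SE was taken as the size of the log2 fold change divided by the root of F, and ratios within a line use log2 CPM with a prior count of 2. The line pairs the libraries: after each medium's mean was removed, the paired libraries correlated at 0.779, 0.792 and 0.805 within HSC3, HSC4 and SAS. On simulated counts with 200 changed genes, 98% of 2-fold and 100% of 4-fold changes of the medium were called (13059 genes). Between HSC4 and HSC3 84% and 100% were called (13124 genes). False calls numbered 4 for the medium and 10 for HSC4 against HSC3. The simulation gave every gene the same spread and took the changed genes from those with higher counts. A changed gene had the same change in every library of its group. Genes in the deposited counts differ in spread, level and response by line, so these shares are no measure of power for them. Whether such shares hold for the deposited counts was not tested. There SAT1, at 1.86-fold between media, was not called by edgeR.

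The members and lists were chosen with earlier results of these data known. Named were all 10 genes, 3 members per related list (lowest p, mean CPM at least 1), the 3 genes most correlated with SAT1 and with ODC1 (mean CPM at least 5), and transcripts with 10% of their gene in a library. 1 gene that this rule names is not reported here. Alternatives were other tools, scalings and filters, no line term, repeated rows added, coding transcripts only, and lines or libraries left out. No line term, repeated rows, coding transcripts only and lines left out were run for the medium alone, and libraries left out for the lines alone.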

Additional observations from a re-analysis of the deposited data

Results flagged for a closer look

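For 6 of the 10 genes, 1 line was higher and another lower in HPLM, with 1 library per line and medium, so that the difference between lines was not tested. Between the highest and the lowest line the log2 ratio of HPLM to DMEM differed by 1.66 for PAOX (SAS against HSC3) and by 1.35 for SMOX (SAS against HSC3). PAOX lay at or below 2.23 CPM in these 2 lines and SMOX at or below 9.17. It differed by 0.36 for OAZ2 (SAS against HSC4), by 0.33 for AZIN1 (SAS against HSC4), by 0.30 for SRM (HSC4 against SAS) and by 0.13 for OAZ1 (HSC4 against SAS).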

How the results depend on the processing

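Over all genes the count of calls for the medium was 1, and it was 127 with DESeq2, 9 with limma-voom, 0 with upper-quartile scaling, without the low-count filter and without the line as block, and from 0 to 4 without 1 line. Of the 10 genes 0 passed, and with DESeq2 2 passed, SAT1 at 0.89 and ODC1 at 0.50. The paired fit with the line as block changed no call of the 10 genes: without the block SAT1 had 0.88 and ODC1 0.47 (edgeR adjusted p = 1 for each). SAT1, ODC1, SMS, SRM, AMD1, OAZ2 and AZIN1 kept the sign of their medium difference under all alternatives run. In size, without 1 line SMS ran from 0.16 to 0.35, SRM from 0.090 to 0.25, OAZ2 from 0.078 to 0.25 and AZIN1 from 0.0088 to 0.17. Without a scaling factor AMD1 had −0.14 and AZIN1 0.058. SMOX turned to 0.028 with limma-voom, 0.00061 with upper-quartile scaling, 0.046 without the block, 0.054 with coding transcripts only and 0.31 without HSC3. PAOX turned to −0.20 with coding transcripts only and −0.22 without SAS. OAZ1 turned to −0.037 without a scaling factor and −0.025 without HSC4. The calls between lines ranged from 0 to 4 in SAS against HSC3 and from 4 to 7 in SAS against HSC4 without 1 library, where the lone library of a line is assumed to vary like the others. Between lines, differences near 0 turned for SAT1 in HSC4 against HSC3 without a scaling factor (0.010), for SMOX in SAS against HSC3 without HSC3 in HPLM (−0.39) and without SAS in HPLM (−0.34; up to 0.66 without HSC3 in DMEM), for OAZ1 in SAS against HSC3 without SAS in HPLM (0.013; down to −0.096 without SAS in DMEM), and for SMS in SAS against HSC4 without HSC4 in DMEM (0.076) and without SAS in HPLM (0.038; down to −0.15 without HSC4 in HPLM). In all, 22 values between lines lost their call and kept their direction, 1 without a scaling factor (AZIN1 in SAS against HSC4) and the rest without 1 library. The cause was not tested.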
